A study of Mus musculus with 2 samples.

Results

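The transcripts of 39 listed genes of Fanconi anemia, homologous recombination, break signaling and end joining were compared in 2 sorted fractions of mouse hematopoietic stem cells (HSCs). The genes are a list of symbols drawn up by pathway with earlier results of these data known, and 38 of the 39 had a row of their own among the 23210 genes used. Rad51b had no row under that symbol; its older symbol Rad51l1 did, and that row is given apart from the 38. There were 2 groups, each with 1 RNA library from LSK cells (lineage-negative, Sca-1-positive, Kit-positive) that were CD150-positive and Flt3-negative. One group was negative and the other positive for Satb1-Tomato, a fluorescent reporter of the chromatin organizer SATB1 that both groups carry. The labels give no strain, age, sex, treatment or number of animals per library. The question of the design is whether transcript levels differ between HSCs positive and negative for the reporter.

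Fanconi proteins repair interstrand crosslinks, lesions that block replication forks. A nuclear core complex adds ubiquitin to the FANCD2 and FANCI pair, and this switch recruits nucleases and the recombination machinery. Homologous recombination then copies the broken stretch from the sister chromatid with BRCA1, BRCA2 and strand exchange proteins, mainly in S and G2 phase, whereas end joining ligates broken ends in any phase. Loss of the Fanconi pathway causes bone marrow failure, and crosslinks from endogenous aldehydes are a known threat to HSCs.

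Values are FPKM, fragments per kilobase of transcript and per 1000000 mapped fragments; where 2 levels of a gene are given, the SATB1-negative library stands first and the SATB1-positive library second. "Higher" and "lower" refer to the SATB1-positive library. Ratios between the libraries are given as log2((SATB1-positive FPKM + 1)/(SATB1-negative FPKM + 1)), while folds are plain ratios of FPKM. Each fold stands with a 95% interval for counting error, computed from estimated fragments; amplified copies were not collapsed to molecules, so it can be too narrow, and it leaves out variation among animals and sorts. With 1 library per group there is no replicate check and no p-value. Genes were called measured when the mean of their 2 values was at least 1 FPKM, which 37 of the 38 members and 11628 of all genes reached; Lig4 was the exception.

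The differences of the repair genes between the fractions were small, and most were toward higher levels in SATB1-positive HSCs. Small differences were typical of all measured genes too: the median absolute log2 ratio was 0.19 for the members and 0.17 for all. Of the 37 measured members, 18 had a log2 ratio at or above the 75th percentile of all measured genes, and 3 at or below the 25th. No measured member passed 1.5-fold on the FPKM + 1 scale in either direction, where 4.05% of all measured genes passed as higher and 3.42% as lower. With 37 members, 0 is near each of these shares. None passed 2-fold among the 35 members whose higher level was at least 5 FPKM, where 1.31% of 9308 genes were higher and 0.688% lower. Of the 37 measured members 29 had a log2 ratio above 0 and 8 below, against 49% above 0 among all measured genes. Their median log2 ratio was 0.14, against -0.0057 for all measured genes, and single members ran from -0.31 for Xrcc5 to 0.53 for Fanca and Fanci. At 1.25-fold, a size chosen after the values were seen, 10 members were higher and 0 lower; the shares over all measured genes were 11.8% higher and 12% lower. The 10 were Fanca, Fancb, Fancm, Fanci, Fancd2, Brip1, Brca2, Xrcc2, Blm and Prkdc. Fancm lay just inside that size at a log2 ratio of 0.33, and Xrcc5, at -0.31, and Mre11a, at 0.24, were the nearest outside it on either side. In bulk RNA, fewer cells with a transcript and less transcript per cell cannot be told apart.

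**Figure D1:**
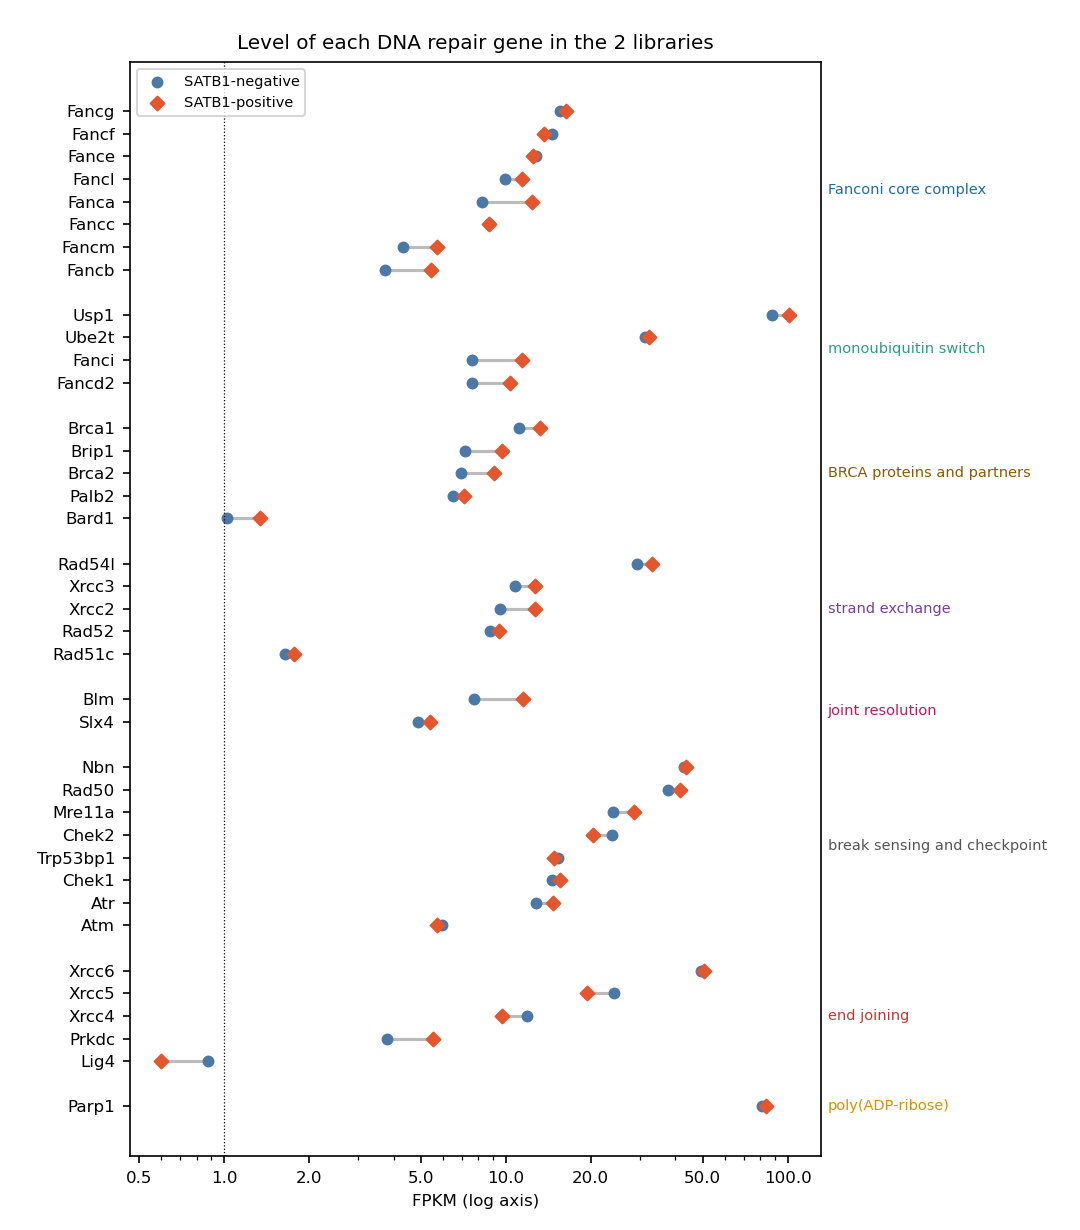
Level of each of the 38 repair genes in FPKM (log axis) in the SATB1-negative (circle) and SATB1-positive (diamond) library, 1 library each, grouped by role and ordered by mean level; the dotted line is 1 FPKM. Levels run from below 1 FPKM for Lig4 to about 100 FPKM for Usp1, and the paired points lie close together.

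Promoter sequences are shown for a few chosen members, not all of them at an end of the range of ratios. Genes of DNA synthesis and mitosis often carry words read by E2F factors or the CCAAT word read by NF-Y. Fanca and Blm had ratios among the highest, and Brip1 held 3 CCAAT words. Xrcc5 and Xrcc6 encode partners of 1 complex that differed from each other. All those shown hold a searched word. Fanci, with a ratio of 0.53 like Fanca, held none and is not shown. Fancf and Ube2t, with ratios of -0.09 and 0.05, held CCAAT words and are not shown. Each sequence is the stretch from 190 bases to 1 base before the gene's start in RefSeq (GRCm38.p6, the assembly behind mm10), written along the gene's strand, with CCAAT (or ATTGG, its other strand) and E2F words in capitals. They lie at chr8:123318577-123318766 (minus) for Fanca, chr7:80534999-80535188 (minus) for Blm, chr11:86201194-86201383 (minus) for Brip1, chr1:72307231-72307420 (plus) for Xrcc5 and chr15:82016179-82016368 (plus) for Xrcc6.
Fanca: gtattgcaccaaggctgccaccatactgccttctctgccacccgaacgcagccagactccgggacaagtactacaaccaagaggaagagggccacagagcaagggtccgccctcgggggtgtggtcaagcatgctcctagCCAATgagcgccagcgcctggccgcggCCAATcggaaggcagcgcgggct
Blm: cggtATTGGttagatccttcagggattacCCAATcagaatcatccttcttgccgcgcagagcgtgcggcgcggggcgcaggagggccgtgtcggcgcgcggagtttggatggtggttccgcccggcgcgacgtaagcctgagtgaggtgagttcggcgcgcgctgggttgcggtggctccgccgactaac
Brip1: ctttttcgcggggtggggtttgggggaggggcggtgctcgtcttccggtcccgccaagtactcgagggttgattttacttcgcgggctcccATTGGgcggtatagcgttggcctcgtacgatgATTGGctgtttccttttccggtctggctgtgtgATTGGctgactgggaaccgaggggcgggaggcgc
Xrcc5: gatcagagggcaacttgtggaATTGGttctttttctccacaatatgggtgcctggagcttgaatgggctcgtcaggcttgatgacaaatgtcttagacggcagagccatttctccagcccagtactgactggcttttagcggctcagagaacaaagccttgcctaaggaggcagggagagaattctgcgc
Xrcc6: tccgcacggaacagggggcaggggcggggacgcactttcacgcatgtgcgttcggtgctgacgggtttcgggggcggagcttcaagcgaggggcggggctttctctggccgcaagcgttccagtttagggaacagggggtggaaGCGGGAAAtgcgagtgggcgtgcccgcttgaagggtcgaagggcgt

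The words were searched on both strands of the whole RefSeq window, 250 bases before to 50 after the start, for the 32 members with an entry. CCAAT occurred in 19 of the 32, and in 37.4% of the 32851 promoters of the table or 43.4% of the measured genes with an entry. An E2F word (TTTGGCGC, TTTCCCGC, TTTGGCGG, TTTCCCGG, TTTGCCGC or TTTCGCGC) occurred in 7 members, Bard1, Fancg, Chek2, Brca2, Chek1, Rad51c and Xrcc6, against 3.98% of promoters and 8.12% of the measured genes. The cell cycle homology words TTTGAA and TTCGAA occurred in 2, Bard1 and Atr, against 19.2% of promoters and 16.4% of the measured genes. These words do not contain one another. Measured members with an E2F word had a median log2 ratio of 0.07 (range -0.21 to 0.35) and the 24 without one 0.15 (-0.31 to 0.53). For CCAAT the medians were 0.12 over 19 members with it and 0.09 over 12 without, so the sets overlapped over most of their range. A match is a description of the letters and not of a bound site.

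The core complex, which carries the ubiquitin ligase, had uneven members. Fanca, a scaffold subunit, was at 8.24 and 12.4 FPKM, 1.501-fold higher (1.39 to 1.62; about 1231 and 1418 fragments). Fancb, the X-linked subunit that holds the catalytic module together, was at 3.72 and 5.43 FPKM, 1.46-fold higher (1.24 to 1.72). Fancm, the translocase that anchors the complex to DNA, was at 4.33 and 5.68 FPKM, 1.31-fold higher (1.21 to 1.43). These 3 were the core members whose difference was largest. Fancl, the ligase itself, was at 9.96 and 11.4 FPKM with an interval that held 1 (0.978 to 1.34). This interval rests on its shorter transcript of 1187 bases. Its longer transcript of 2724 bases would give a narrower interval, and whether that holds 1 was not tested. The other 4, Fancc, Fance, Fancf and Fancg, lay within 0.09 of 0 on the log2 scale, and the interval of each held 1. Fancg, another subunit, had the highest mean level of the complex at 15.6 and 16.3 FPKM; Fancf was at 14.5 and 13.7 FPKM, Fance at 12.8 and 12.5 FPKM and Fancc at 8.73 and 8.70 FPKM. Fance and Fancc are partners at the surface that meets FANCD2, and neither differed beyond counting error. Over the 8 core genes 5 had a ratio above 0 and the median was 0.12.

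Both substrates of the core complex were higher in SATB1-positive HSCs. Fanci was at 7.58 and 11.4 FPKM, 1.51-fold higher (1.39 to 1.63), and Fancd2 at 7.56 and 10.4 FPKM, 1.37-fold higher (1.27 to 1.47). The pair was near equal in level within each library, with a Fancd2-to-Fanci ratio of 0.998 and 0.907. That ratio changed 0.909-fold, and its counting interval held 1 (0.816 to 1.01). Ube2t, the ubiquitin-conjugating enzyme that serves the complex, was at 31.1 and 32.3 FPKM and did not differ beyond counting error (1.04-fold, 0.944 to 1.14). Usp1 encodes the protease that removes the ubiquitin again. It was the most abundant of all 38 genes at 88.1 and 101 FPKM, 1.15-fold higher (1.12 to 1.18).

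All 5 BRCA genes and partners had ratios above 0, with a median of 0.23. Brip1, the helicase partner of BRCA1, was at 7.19 and 9.72 FPKM, 1.35-fold higher (1.26 to 1.45). Brca2, a mediator of strand exchange, was at 6.92 and 9.11 FPKM, 1.32-fold higher (1.25 to 1.39), and Palb2, which links BRCA2 to BRCA1, at 6.51 and 7.11 FPKM (1.09-fold, 0.921 to 1.29). Brca1, which promotes resection and loading, was at 11.1 and 13.2 FPKM, 1.19-fold higher (1.12 to 1.26). Its obligate partner Bard1 was the lowest of this group at 1.03 and 1.34 FPKM, from about 195 and 196 fragments. Brca1 stood 10.8-fold and 9.86-fold above Bard1, so the imbalance of the pair was present in both, and its change was within counting error (0.910-fold, 0.736 to 1.12).

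The strand exchange genes also lay above 0 in all 5 rows under a listed symbol, with a median of 0.17. Xrcc2, which helps strand exchange, was at 9.51 and 12.7 FPKM, 1.33-fold higher (1.22 to 1.45). Xrcc3, which works in the same step, was at 10.8 and 12.7 FPKM, 1.17-fold higher (1.06 to 1.30). Rad54l, a motor protein of strand pairing, had the highest level of the group at 29.2 and 33.0 FPKM, 1.13-fold higher (1.07 to 1.198). Rad52, a strand annealing protein, was at 8.79 and 9.48 FPKM (1.08-fold, 0.935 to 1.24). Rad51c, which forms complexes with the products of Xrcc2 and Xrcc3, was at 1.65 and 1.77 FPKM. By its shorter transcript of 1632 bases this is only about 82 and 68 fragments, with a wide interval (0.764 to 1.49). Its longer transcript has 3944 bases and would give more fragments and a narrower interval. The row of the older symbol Rad51l1 was at 5.04 and 6.19 FPKM, 1.23-fold higher (1.03 to 1.46). Xrcc3 thus stood above Rad51c in both libraries, a gap of 6.54-fold and 7.16-fold.

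Of the genes that dissolve or cut joined DNA, Blm differed more than Slx4. Blm, the RecQ helicase mutated in Bloom syndrome, was at 7.69 and 11.5 FPKM, 1.497-fold higher (1.38 to 1.62). Slx4, the scaffold of structure-specific nucleases, was at 4.88 and 5.38 FPKM, 1.10-fold higher (1.002 to 1.21).

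Break sensing and checkpoint genes lay near 0, with a median of 0.05 and 5 of 8 above 0. The MRN complex, which tethers and trims broken ends, was abundant. Nbn was at 42.8 and 43.5 FPKM, Rad50 at 37.6 and 41.5 FPKM and Mre11a, the nuclease, at 24.1 and 28.6 FPKM. Mre11a was 1.19-fold higher (1.12 to 1.25) and Rad50 1.10-fold (1.06 to 1.14), while the interval of Nbn held 1. Atr, the kinase of stalled forks, was at 12.8 and 14.7 FPKM, 1.15-fold higher (1.09 to 1.205), and its effector Chek1 at 14.6 and 15.5 FPKM (1.06-fold, 0.990 to 1.15). The kinase of double-strand breaks, Atm, was at 5.92 and 5.68 FPKM with an interval that held 1. Its effector Chek2 was at 23.7 and 20.4 FPKM, 1.16-fold lower (1.08 to 1.26). The Atm-to-Atr ratio was 0.462 and 0.387, a 0.837-fold change (0.770 to 0.910), and the Chek2-to-Chek1 ratio went from 1.63 to 1.31, a 0.807-fold change (0.725 to 0.898). Trp53bp1, which holds back resection at breaks, was at 15.3 and 14.8 FPKM.

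End joining genes went in opposite directions. Xrcc5, which encodes the larger subunit of the Ku ring that caps broken ends, was at 24.2 and 19.4 FPKM, 1.25-fold lower (1.16 to 1.34). Its partner Xrcc6 was at 49.3 and 50.4 FPKM, with an interval that held 1 (0.970 to 1.08). The Xrcc5-to-Xrcc6 ratio was therefore 0.491 and 0.384, a 0.783-fold change (0.716 to 0.856). Prkdc, the kinase that Ku recruits, was at 3.78 and 5.53 FPKM, 1.46-fold higher (1.37 to 1.57). Xrcc4, the partner that stabilizes the ligase, was at 11.9 and 9.72 FPKM, 1.22-fold lower (1.07 to 1.40). Lig4, the ligase of this pathway, was under 1 FPKM in both at 0.875 and 0.598 FPKM, 1.46-fold lower (1.10 to 1.95; about 147 and 77 fragments). Of the 5 end joining genes Prkdc was thus higher, Xrcc4, Xrcc5 and Lig4 were lower and Xrcc6 was near equal. Parp1, the sensor of strand breaks that makes poly(ADP-ribose), was the second most abundant member at 81.0 and 83.9 FPKM (1.04-fold, 1.01 to 1.07).

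**Figure D2:**
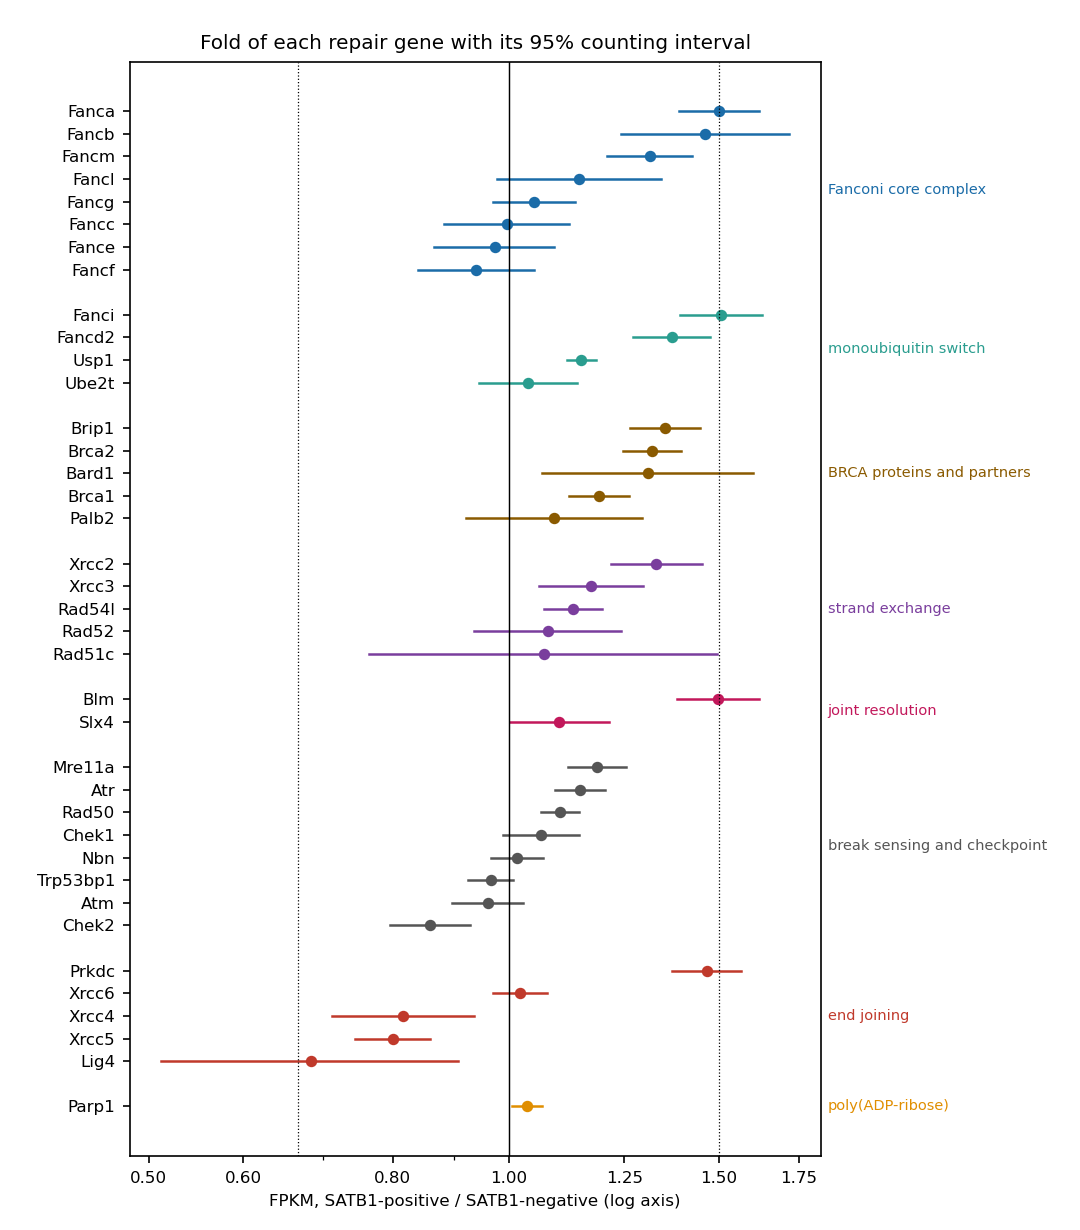
Fold of FPKM, SATB1-positive over SATB1-negative (log axis), of the 38 genes by role; lines are 95% counting intervals from estimated fragments, the solid line is no difference and the dotted lines are 1.5-fold in plain FPKM. Fanca, Fanci, Blm, Fancb and Prkdc lie at or near 1.5, and Xrcc5, Xrcc4, Chek2 and Lig4 lie below 1 with their whole interval.

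Of the 37 measured genes, 20 had a counting interval wholly above 1, 3 wholly below 1 (Chek2, Xrcc4 and Xrcc5) and 14 that held 1. These counts rest on the shortest transcript of each gene, and longer ones, as for Fancl, would narrow the intervals. Among the 10371 measured genes with a transcript model, the interval lay above 1 for 31.8% and below 1 for 31.4%, so an interval that leaves out 1 is common at this depth. Estimated fragments per gene and library ran from 68 to 10379, from depths of about 34920000 and 26760000 fragments. Exons of 9 members overlap another gene, whose reads could be shared. The overlapped share of exon bases was largest for Trp53bp1 (22.1%, with Tubgcp4), Fanci (14.3%, with Polg), Fancl (14.1%, with Vrk2) and Fanca (12.3%, with Zfp276). Blm, Prkdc and Xrcc5 had no such overlap.

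In mm10 Fanca (ENSMUSG00000032815.16) is a gene of 43 exons on chromosome 8, minus strand, 123268300 to 123318576. Fanci (ENSMUSG00000039187.16) is on the plus strand of chromosome 7 from 79391929 to 79450264, and Blm (ENSMUSG00000030528.12) on the minus strand of the same chromosome at 80454733 to 80535119. Xrcc5 (ENSMUSG00000026187.8) is on chromosome 1 at 72307421 to 72394952, Xrcc6 (ENSMUSG00000022471.14) on chromosome 15 at 81987835 to 82040085 and Prkdc (ENSMUSG00000022672.8) on chromosome 16 at 15637866 to 15842235, all on the plus strand. These are the GENCODE M21 gene intervals; those of Blm and Xrcc6 begin upstream of the RefSeq start, so their printed promoter sequences lie partly (Blm) or wholly (Xrcc6) inside them. Values cover whole genes, exons of all isoforms together.

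Members with long transcripts had the higher ratios. All measured genes with a transcript model were divided into 3 classes of equal size by their longest annotated transcript, and 18 members were in the long class (over 3849 bases), 13 in the middle and 6 in the short class (up to 2215 bases). In the long class 16 of 18 members were above 0, with a median log2 ratio of 0.23, against 0.04 for all genes of that class. In the middle class 10 of 13 were above 0 with a median of 0.11, against -0.00076 for all genes. In the short class 3 of 6 were above 0, with a median of -0.0028 against -0.05. Of the 10 members past 1.25-fold 8 were in the long class, with a share of 13% for all its genes. Atm and Trp53bp1, with longest transcripts of 9787 and 9621 bases, were the 2 long members below 0. Transcript length moved with the ratios in the same direction over all genes; its part in the values of the members was not tested.

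**Figure D3:**
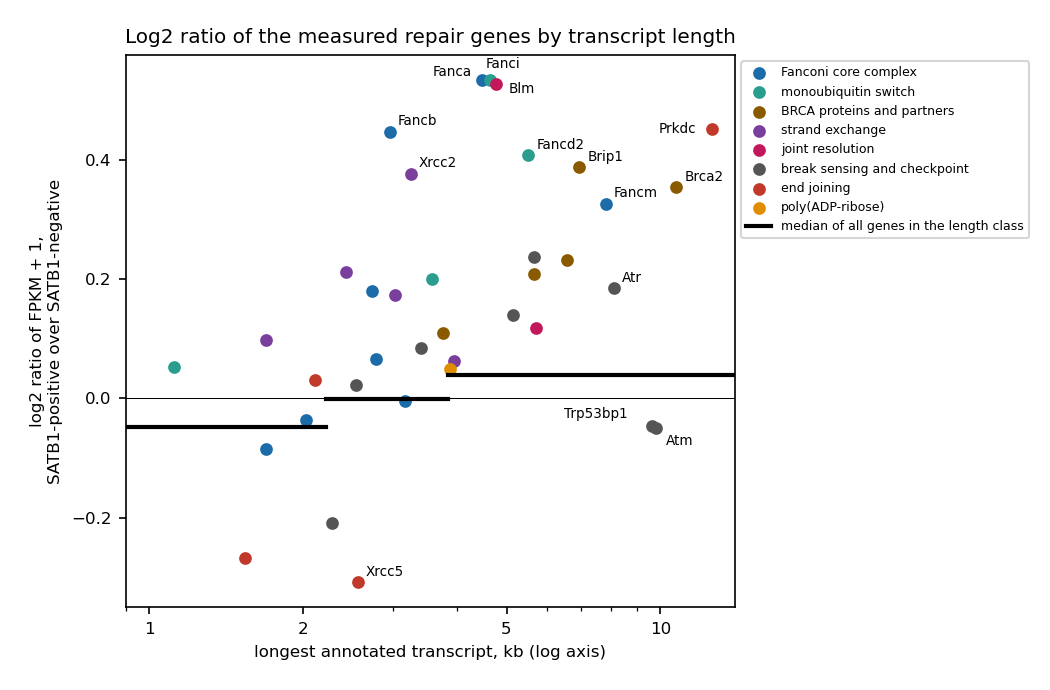
Log2 ratio of FPKM + 1 (SATB1-positive over SATB1-negative) of the 37 measured repair genes against the longest annotated transcript in kb (log axis), colored by role; black bars are the median of all measured genes in each of 3 length classes. Long members such as Prkdc, Brca2 and Fancm lie well above the bar of their class, and Atm and Trp53bp1 lie below it.

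Level went the other way. The 4 measured members with a mean below 5 FPKM had a median log2 ratio of 0.33 and the 11 from 5 to 10 FPKM 0.33, whereas the 12 from 10 to 20 FPKM had 0.13 and the 10 at 20 FPKM or more 0.05. The medians of all genes in those 4 classes lay between -0.03 and 0.0025. At 20 FPKM or more, no member passed 1.25-fold, the size chosen after the values were seen, in either direction. Of all genes there 8.61% were higher and 7.10% lower, so 0 of 10 members is near each of these shares.

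A second list held 84 further genes of crosslink repair, resection, joint resolution, checkpoint, break chromatin and end joining. Of these 82 had a row, some under an older symbol, and 81 were measured. In the list 55 were above 0 and 26 below, with a median log2 ratio of 0.14, which equals that of the members to 2 decimals. At 1.5-fold on the FPKM + 1 scale 2 were higher and 0 lower, beside the 4.05% and 3.42% of all measured genes. These 2, named here after their values were seen, were Recql4, a RecQ helicase like Blm, and Polq, the polymerase of microhomology end joining. Recql4 was at 1.86 and 5.19 FPKM, 2.80-fold higher (2.39 to 3.27), and 10.8% of its exon bases overlap Mfsd3. Polq was at 2.52 and 5.03 FPKM, 1.998-fold higher (1.80 to 2.21). Both are of low level, with about 239 and 514 fragments for Recql4 and 622 and 954 for Polq.

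Among list genes with a mean of at least 5 FPKM the 4 highest ratios were those of Eme1, Mcm8, Rad54b and Recql. Eme1, a partner of the nuclease MUS81, was at 7.50 and 11.4 FPKM (1.53-fold, 1.36 to 1.71), and Mcm8, a helicase subunit of recombination, at 8.03 and 12.2 FPKM (1.51-fold, 1.38 to 1.66). Rad54b, a paralog of Rad54l whose exons overlap Fsbp over 41.6% of their bases, was at 7.13 and 10.4 FPKM, and the helicase gene Recql at 20.4 and 27.8 FPKM. The 4 lowest ratios were those of Swsap1, Nhej1, Zswim7 and Sfr1. Swsap1 (listed as 2310047B19Rik), which acts in recombination together with Zswim7, was at 10.7 and 7.02 FPKM, 1.53-fold lower (1.33 to 1.76). Zswim7 itself was at 12.3 and 8.88 FPKM, 1.38-fold lower (1.11 to 1.73). Nhej1, which works beside Xrcc4 in end joining, was at 7.01 and 4.69 FPKM, 1.496-fold lower (1.18 to 1.91). Sfr1, a cofactor of strand exchange, was at 166 and 142 FPKM (1.17-fold lower, 1.13 to 1.21).

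By role, the companion genes of joint resolution were above 0 in 10 of 12, with a median of 0.19, and those of the checkpoint in 8 of 11, also 0.19. Break chromatin genes were above 0 in 7 of 13 with a median of 0.00063. Crosslink repair companions were above 0 in 12 of 17 (median 0.04), resection and strand exchange in 8 of 13 (0.06) and end joining in 10 of 15 (0.18).

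Cell cycle genes were also mostly higher. Of 33 S phase genes, none of them a member, 31 were above 0 with a median log2 ratio of 0.15, close to the 0.14 of the members. Mcm6, a subunit of the replicative helicase, was the most abundant of them at 390 and 406 FPKM. All 35 genes of G2 and M phase were above 0, with a median of 0.52; Tubb4b, a tubulin, was at 223 and 318 FPKM. Their part in the ratios of the repair genes was not tested.

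**Figure D4:**
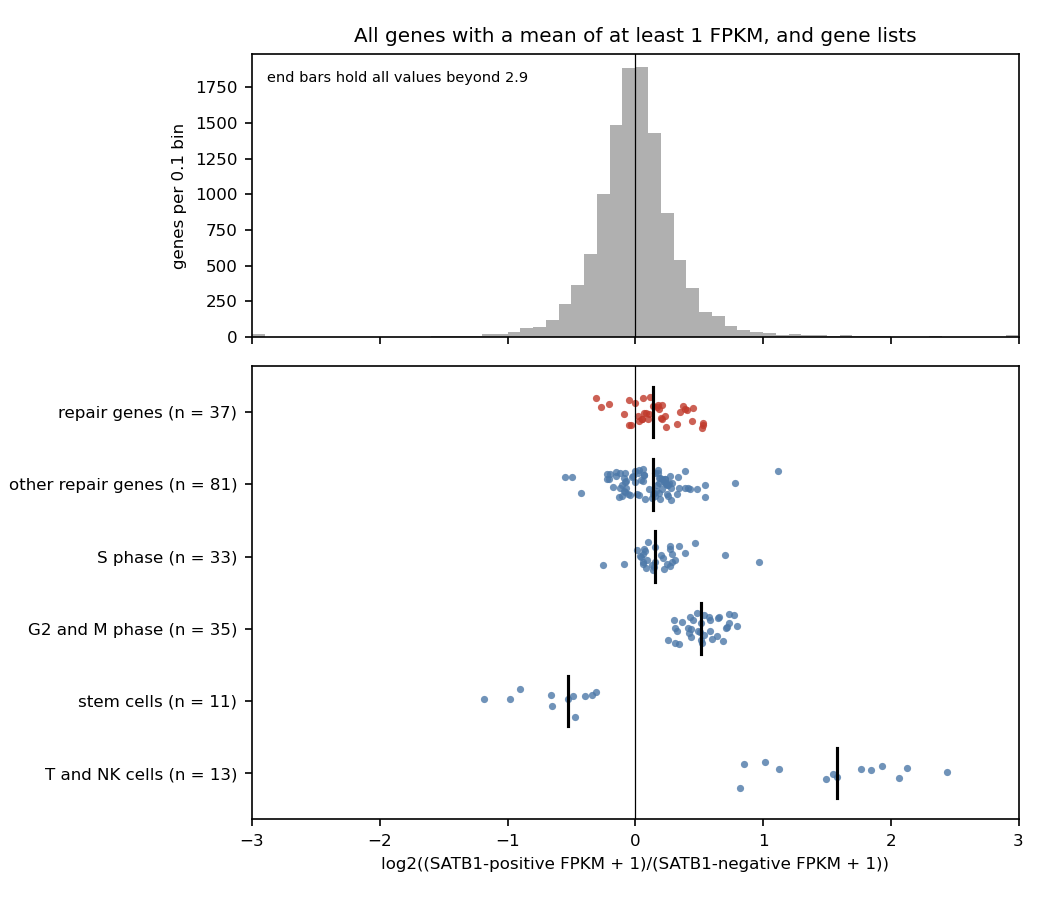
Log2 ratio of FPKM + 1, SATB1-positive over SATB1-negative: above, the number of all 11628 measured genes per bin of 0.1; below, each measured gene of 6 lists (points, spread vertically at random) with the list's median (bar). Repair genes, other repair genes and S phase genes have medians of 0.14, 0.14 and 0.15, G2 and M phase genes 0.52, stem cell genes -0.53 and T and NK cell genes 1.58.

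The 2 libraries also differed in markers of cell types. All 11 stem cell markers were present in both, and all 11 were lower in the SATB1-positive library (summed level 849 and 578 FPKM, median log2 ratio -0.53). The summed level of 16 T and natural killer (NK) cell markers was 37.4 and 145 FPKM, with 13 of 13 measured above 0 and none at 0 in either library; Ccl5 was at 8.88 and 36.7 FPKM. For 6 mast cell and basophil markers the sums were 308 and 694 FPKM with 5 of 6 above 0 (Prss34, 107 and 360 FPKM). Over 9 neutrophil and granulocyte progenitor markers they were 1777 and 3586 FPKM with 5 of 9 above 0 (Mpo, 437 and 1528 FPKM). The median log2 ratio of these 9 was 0.12. Elane, Ctsg, Prtn3 and S100a9 were also higher, and Ltf, Camp, S100a8 and Ngp were lower, all named after their values were seen. Monocyte and macrophage markers summed to 593 and 754 FPKM with 5 of 6 measured above 0 (Lyz2, 395 and 416 FPKM), erythroid markers to 268 and 414 FPKM with 3 of 7 (Car1, 204 and 350 FPKM) and megakaryocyte markers to 165 and 191 FPKM with 3 of 6 (Itga2b, 62.8 and 67.3 FPKM). B cell markers were near 0, at 0.878 and 1.49 FPKM over 6 genes (Cd79a, 0.205 and 0.600 FPKM). The part of such cells in the levels of the repair genes was not tested.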

How the data were processed

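RNA of 2 mouse HSC fractions was extracted with the miRNeasy kit and made into libraries with the Clontech SMARTer Stranded kit, per the labels' protocols. The authors deposited FPKM for each symbol, per the file headers. Cufflinks 2.2.1, SAMtools 0.1.19, Bowtie2 2.2.3, TopHat2 2.0.13 and the build mm10 are named in the submitters' processing notes. What each tool did, the annotation and the strand setting were not given in the sources used here; if strand was ignored, antisense reads are part of a gene's value. Of 23235 rows, 25 with a spreadsheet serial number for a symbol were left out.

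Ratios used a pseudocount of 1 FPKM. Every member is named; of the companion list the rule named the 4 highest and 4 lowest ratios at a mean of at least 5 FPKM, and of the other lists the most abundant gene, which is not reported here for some lists; a gene outside this rule is marked as chosen after its values were seen. The members and lists were chosen with earlier results of these data known. Companion genes without a row were matched by RefSeq synonyms.

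Depth was estimated from low FPKM of genes with 1 exon and 1 transcript in GENCODE M21, which step by the value of 1 fragment. Depths of 34920000 and 26760000 fragments, with length offsets of 205 and 200 bases, made 63.6% of 165 and 67.0% of 182 values whole within 0.05 fragments. Depth and offset were chosen by this share. A fragment over 1 kb is worth 0.0286 and 0.0374 FPKM. Fragments per gene came from the shortest RefSeq-linked transcript; intervals of folds are Clopper-Pearson on their split, those of ratios between partners exact conditional odds ratios (SciPy 1.17.1). The steps were tested on simulated data. For the depth, counts were simulated at the depth and offset already chosen, so that test cannot show that these are right for the real libraries. Promoters are from RefSeq, GRCm38.p6; Fancd2, Prkdc, Usp1, Rad50, Xrcc2 and Nbn are not analysed here for promoter words. No replicates exist, so leaving one out was not possible.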

Additional observations from a re-analysis of the deposited data

How the results depend on the processing

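The median log2 ratio of the repair genes was above 0 under every pseudocount, scaling and low-value filter tried (0.07 to 0.14). That of the companion list was too (0.08 to 0.14). No measured member changed sign under 3 other scalings, which moved the median of all measured genes by only -0.0051 to 0.0028. A pseudocount cannot change the sign of a ratio or of these medians, so the 2 other pseudocounts did not test it. No repair gene passed 1.5-fold or 2-fold under any of 8 other settings (2 pseudocounts, 3 scalings and 3 filters). Not all of these could have changed the count. The pseudocount of 5 FPKM and the stricter filter could only keep it at 0, and the other filters could add Lig4 at most. The count of 0 at 1.5-fold also rests on the use of a pseudocount. In plain FPKM, Fanca at 1.501-fold and Fanci at 1.506-fold were just past that size. The count of companion genes past 1.5-fold, 2 in the report, was 5 with a pseudocount of 0.1 FPKM (4 higher and 1 lower; 5.44% and 5.61% of all genes), 0 with a pseudocount of 5 FPKM (2.004% and 1.195%) and 0 at a mean of at least 5 FPKM (3.40% and 2.58%); a larger pseudocount shrinks low genes by construction. With the added size of 1.25-fold it was 15 (12 higher and 3 lower), and that of the repair genes was 10 (10 higher and 0 lower), where 11.8% of all measured genes were higher and 12% lower. Adding Rad51l1 gave a median of 0.16 for the repair genes, and leaving out those with overlapping exons gave 0.13. No paired analysis was possible because each group has 1 library. Depth limits Rad51c, Lig4 and Bard1, whose intervals are the widest among the members. For Rad51c the width also rests on the use of its shorter transcript.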

Other observations

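Other repair pathways, from lists written after the libraries had been examined, had median ratios nearer to 0 than the 0.14 of the members; these differences were not tested. Mismatch repair genes had a median log2 ratio of 0.08 over 7 genes, 6 of them above 0. Base excision repair genes had a median of 0.08 over 14 measured genes, 9 above 0, with the flap nuclease gene Fen1 at 78.5 and 99.6 FPKM (SATB1-negative library first). Nucleotide excision repair was split, with 8 of 16 above 0 and a median of 0.01. Ddb1, the most abundant of them, was at 97.9 and 115 FPKM. Ercc8, Gtf2h3 and Rad18 are named for their ratios, after the values were seen. Ercc8, a factor of repair in transcribed genes, was at 4.56 and 7.67 FPKM and was the 1 of the 16 past 1.5-fold. Of all measured genes 4.05% passed that size as higher and 3.42% as lower, so 1 of 16 is near the share of all genes. Gtf2h3, a subunit of the general factor that opens DNA, was at 28.3 and 21.1 FPKM. Translesion synthesis genes were above 0 in 7 of 8 with a median of 0.05, and Ube2b, a ubiquitin-conjugating enzyme and the most abundant, was at 75.2 and 76.4 FPKM. Rad18, the ligase that marks stalled sliding clamps and also acts upstream of the Fanconi pathway, was at 19.3 and 27.5 FPKM.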
